A study of Mus musculus with 18 samples.

Results

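The genes described here drive the cell division cycle and the copying of DNA. The list held 52 genes in 8 roles, from the cyclins of the G1 phase to the motors of the mitotic spindle, and was drawn up by gene symbol with earlier results of these arrays known. A probe with the gene's symbol was found for 48 of the 52. Detection at p under 0.01 on 2 or more of the 17 arrays used was required, and 40 genes met it, which were tested among 8922 genes in all. The other 8 with a probe, Cdk6, Gmnn, Ccna2, Ccnb2, Bub1, Ttk, Cenpe and Ube2c, were not above background on any of the 17 arrays. Cdk4, Ccnb1, Aurkb and Mki67 had no probe under their symbol and were not analysed here.

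The RNA came from cultured mouse neurons and was read on 18 bead arrays that carry probes for known mouse genes, in 6 groups of 3. Neurons received adaptaquin, an inhibitor of the oxygen-sensing prolyl hydroxylases, at 0, 0.1 or 1 µM, and each dose was given without or with HCA (homocysteic acid, a glutamate analogue that starves neurons of cystine and depletes glutathione). The groups were thus untreated neurons, 0.1 µM adaptaquin, 1 µM adaptaquin, HCA, HCA with 0.1 µM adaptaquin and HCA with 1 µM adaptaquin. The series title names death that depends on the transcription factor ATF4 and outcome after brain haemorrhage. The sources used here do not give the neurons' strain, age, region or time of exposure. Nor do they say that replicates were separate cultures, so a p-value here reflects how these arrays vary, and that variation may be technical. HCA replicate 3 is titled an outlier and was left out unless stated, which left 2 HCA arrays and 3 in each other group. The upper quartile of intensity was 333 to 563 on these 17 arrays, with 42.8% to 47.6% of probes above background, against 241 and 40.9% on the titled outlier. The number of arrays limited the precision. Of 18 neuronal markers, 14 were detected, Tubb3, Map2 and Syt1 among them, and Snap25, Nefl, Gad2 and Neurod6 did not pass the filter.

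As background, neurons leave the cell cycle for good when they are born, so transcripts of cell division in a neuronal culture are usually read as those of progenitors or glia that still divide. D cyclins with Cdk4 or Cdk6, and E cyclins with Cdk2, release E2F transcription factors, which switch on genes that load the Mcm helicase and supply deoxynucleotides. Later in the cycle the MuvB complex with B-Myb and FoxM1 switches on mitotic genes, many of which carry a short promoter element, the cell cycle genes homology region (CHR), often beside CCAAT boxes bound by NF-Y. The inhibitor p21, encoded by Cdkn1a and induced by p53, blocks the cyclin-dependent kinases, after which the DREAM complex, made of MuvB with E2F4 and a p107 or p130 protein, represses both sets. In bulk RNA, fewer dividing cells and less of these transcripts per cell cannot be told apart.

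With HCA, 10 of the 40 tested members fell and 0 rose. The 10 spanned the cycle, with Ccne2 and Cdk2 of the G1 phase, Tyms of nucleotide supply, and Mad2l1 and Birc5 of the kinetochore. The others were Kif11 and Kif23 of the spindle, Top2a of chromatin, and Cdc20 and Cdca3, listed as partners of the anaphase-promoting complex. The changes were modest, from Cdca3, which fell by 29.2%, to Mad2l1, which fell by 18.9%. This comparison averages the HCA effect over the 3 adaptaquin doses, with 8 arrays with HCA against 9 without. Over all genes tested, 5.87% fell by the same call (limma, Benjamini-Hochberg adjusted p under 0.05), 524 of 8922, and 475 rose.

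Promoter windows are shown for 5 of the 10, those whose window held a match to the letters of the CHR. Members that did not fall held such matches too, as counted below, and a part of the CHR in the fall was not tested. The windows are RefSeq sequence of build GRCm38.p6, 250 bases before to 50 after a transcript start, 5′ to 3′ on the strand of the gene. Capitals mark the CHR, searched as TTTGAA or TTCGAA, and the CCAAT box, searched as CCAAT, each on both strands. A match on the other strand reads TTCAAA or ATTGG. No matches of different motifs overlapped in the windows of the 10. Cdc20 lies at chr4:118437294-118437593 on the minus strand, Cdca3 at chr6:124829926-124830225 on the plus strand, Kif11 at chr19:37376132-37376431 on the plus strand, Kif23 at chr9:61946750-61947049 on the minus strand and Top2a at chr11:99024140-99024439 on the minus strand.
Cdc20: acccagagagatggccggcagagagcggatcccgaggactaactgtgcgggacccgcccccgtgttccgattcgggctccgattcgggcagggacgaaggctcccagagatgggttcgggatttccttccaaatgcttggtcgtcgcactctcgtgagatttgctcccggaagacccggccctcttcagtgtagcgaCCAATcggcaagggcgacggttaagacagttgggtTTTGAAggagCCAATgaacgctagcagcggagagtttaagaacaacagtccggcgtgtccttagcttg
Cdca3: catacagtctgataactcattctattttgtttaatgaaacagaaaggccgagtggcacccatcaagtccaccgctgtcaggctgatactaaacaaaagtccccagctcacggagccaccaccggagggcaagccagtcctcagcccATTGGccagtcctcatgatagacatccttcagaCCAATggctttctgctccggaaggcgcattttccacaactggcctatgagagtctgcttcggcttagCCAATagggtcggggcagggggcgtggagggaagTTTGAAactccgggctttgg
Kif11: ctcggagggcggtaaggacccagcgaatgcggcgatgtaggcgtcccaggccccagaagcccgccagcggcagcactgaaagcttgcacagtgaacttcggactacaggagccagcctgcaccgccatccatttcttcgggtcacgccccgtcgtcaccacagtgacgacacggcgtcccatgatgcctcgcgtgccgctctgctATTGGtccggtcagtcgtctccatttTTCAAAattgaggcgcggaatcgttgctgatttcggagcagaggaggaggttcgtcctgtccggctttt
Kif23: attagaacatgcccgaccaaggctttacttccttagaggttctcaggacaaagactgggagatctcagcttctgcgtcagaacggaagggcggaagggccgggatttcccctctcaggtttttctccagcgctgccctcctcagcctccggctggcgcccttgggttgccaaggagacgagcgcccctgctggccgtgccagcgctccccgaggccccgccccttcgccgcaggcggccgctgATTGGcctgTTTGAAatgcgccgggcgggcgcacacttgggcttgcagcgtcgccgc
Top2a: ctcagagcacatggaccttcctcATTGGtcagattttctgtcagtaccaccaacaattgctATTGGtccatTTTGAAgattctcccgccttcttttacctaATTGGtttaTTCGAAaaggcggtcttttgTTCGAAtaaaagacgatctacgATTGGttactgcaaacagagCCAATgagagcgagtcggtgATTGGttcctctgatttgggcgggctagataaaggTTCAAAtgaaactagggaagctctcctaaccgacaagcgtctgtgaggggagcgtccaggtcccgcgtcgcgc

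Counting base 251 of a window as 0, the CHR began at -18 in Cdc20, 30 in Cdca3, -19 in Kif11 and 2 in Kif23. Top2a held 4 of them, at -179, -140, -120 and -23, beside 6 CCAAT boxes. For only 5 of the 9 windows found among the 10 members did base 251 equal the start that the RefSeq gene table gives, so the positions are those within the window. Ccne2 had no window in the table. The windows of Birc5, Mad2l1 and Tyms held neither motif, and that of Cdk2 held 1 CCAAT box and 1 E2F site (TTTCCCGC, TTTGGCGC or TTTCGCGC, both strands).

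Across members, 33 of the 40 had a window in the table, 37 windows in all. The CHR stood in 18 of those 37 windows, or 48.6%, the CCAAT box in 73.0% and the E2F site in 18.9%. Among all 32851 windows of the table the shares were 19.2%, 37.4% and 1.85%, and among the 9481 windows of genes tested on these arrays they were 13.5%, 38.1% and 3.32%. Within the members, the CHR was in 5 of the 9 genes with a window that fell and in 11 of the other 24. The CCAAT box was in 6 of the 9 and 18 of the other 24, and the E2F site in 1 of the 9 and 6 of the other 24. A match is a run of letters only and shows no binding.

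The fall with HCA is described next by role, as log2 intensity, first on the 8 arrays with HCA and then on the 9 without. Levels of different genes come from different probes and are not compared. Replicate numbers paired the arrays, so the test was also run with the number as a block. That fit called 24 members lower and 0 higher, against 11.3% of all genes lower. Below, counts given with the block hold the members called in that fit, and every member called without it was also called with it.

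Among the G1 cyclins and kinases, 2 of 6 tested members fell and 4 did with the block. Ccne2, a cyclin E that activates Cdk2 at the start of S phase, ran from 7.29 through a median of 7.56 to 7.62 with HCA and from 7.56 through 7.99 to 8.63 without, a fall of 0.49 ± 0.13 (SE; adjusted p = 0.027, limma). The lowest array without HCA reached into the range with it. Replicate 2 carried most of the difference, at -0.85 there against -0.37 and -0.19 within replicates 1 and 3. Cdk2, the kinase partner of the E cyclins, ran from 10.17 through 10.45 to 10.52 with HCA and from 10.57 through 10.71 to 11.07 without. Here the groups did not overlap, and the fitted difference was -0.34 ± 0.075 (adjusted p = 0.0084, limma). Ccne1, the other cyclin E, was at 6.27, 6.43 and 6.73 (lowest, median, highest) with HCA and 6.33, 6.72 and 7.07 without. Its adjusted p was 0.0501 without and 0.014 with the block. Ccnd1, a cyclin that couples growth signals to Cdk4 and Cdk6, was at 10.77, 11.07 and 11.46 with HCA and 10.88, 11.32 and 11.87 without, and its ranges overlapped widely. Within each replicate number it was lower with HCA in all 8 pairs (adjusted p = 0.0057 with the block). The D cyclins Ccnd2 and Ccnd3 differed by -0.0015 ± 0.13 and 0.02 ± 0.055.

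For E2F1 and the licensing of replication origins, 0 of 8 fell, 5 did with the block, and all 8 differences were negative, with a median of -0.19. E2f1, the transcription factor that switches on S phase genes, was at 9.42, 9.73 and 9.97 with HCA and 9.65, 10.13 and 10.27 without. Cdt1, which loads the Mcm helicase at origins, was at 9.40, 9.91 and 10.12 with HCA and 9.65, 10.16 and 10.34 without. Both sets of ranges overlapped. The adjusted p with the block was 0.0045 for E2f1 and 0.013 for Cdt1. Mcm2 to Mcm7 encode the helicase itself. Mcm2 was at 9.40, 9.54 and 9.91 with HCA and 9.55, 9.68 and 10.17 without. Mcm4 was at 11.88, 11.95 and 12.11 with HCA and 11.95, 12.11 and 12.45 without. Mcm5 was at 11.22, 11.62 and 11.74 with HCA and 11.38, 11.70 and 12.06 without. All 3 overlapped between groups and were called lower with the block (adjusted p = 0.0050, 0.012 and 0.034). Mcm7 and Mcm6 were not called in either fit, at -0.21 ± 0.13 and -0.17 ± 0.13, and Mcm3 was likewise not called. Further Mcm6 probes, nearly as bright (means of 9.71 and 9.60 against 9.76), differed by more, at -0.40 and -0.34.

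Of the 5 genes of DNA synthesis and nucleotide supply, 1 fell and 3 did with the block. Tyms, the thymidylate synthase that makes the T of DNA, ran from 10.33 through 10.42 to 10.54 with HCA and from 10.65 through 10.73 to 11.21 without. The groups did not overlap, and the difference was -0.42 ± 0.091 (adjusted p = 0.0085, limma). Replicate 2 had the highest Tyms in each group without HCA (11.13, 11.20 and 11.05), so the difference was -0.68 within replicate 2 and -0.30 and -0.27 within replicates 1 and 3. Tk1, the thymidine kinase of the salvage route, was at 8.86, 9.07 and 9.23 with HCA and 8.83, 9.41 and 9.91 without. It had the same weight on replicate 2, at -0.71 there against -0.060 and -0.21. Rrm1, the large subunit of ribonucleotide reductase, was at 10.04, 10.10 and 10.36 with HCA and 10.11, 10.38 and 10.52 without, and was lower in all 8 pairs. With the block the adjusted p was 0.021 for Tk1 and 0.023 for Rrm1. The small subunit Rrm2 differed by -0.02 ± 0.096 and Pcna, the clamp of the DNA polymerases, by 0.0016 ± 0.17.

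The G2 and mitotic cyclins, kinases and FoxM1 had 0 of 5 tested members called and 1 with the block. Plk1, a kinase of mitotic entry and spindle assembly, was at 9.98, 10.40 and 10.68 with HCA and 9.93, 10.60 and 10.81 without, with almost the same range in both. It was lower with HCA in 7 of 8 pairs (adjusted p = 0.031 with the block). Cdk1, the kinase that drives mitosis, differed by -0.07 ± 0.11, and Plk4, which starts centriole copying, by 0.10 ± 0.12. Aurka and Foxm1 were not called in either fit. Ccna2, Ccnb2, Ccnb1 and Aurkb gave no measurement, so this role is known here from its kinases and FoxM1 and from no cyclin.

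Of 6 kinetochore and spindle checkpoint genes, 2 fell and 4 did with the block. Mad2l1, the checkpoint protein that holds back anaphase, ran from 9.88 through 10.03 to 10.13 with HCA and from 10.06 through 10.34 to 10.46 without, a fall of 0.30 ± 0.062 (adjusted p = 0.0055, limma). It overlapped only through the 1 µM adaptaquin array of replicate 1, at 10.06, and was lower in 7 of 8 pairs. Birc5, the survivin subunit of the chromosomal passenger complex, was at 10.22, 10.60 and 10.72 with HCA and 10.63, 10.77 and 11.02 without, and was lower in 8 of 8 pairs. It fell by 0.32 ± 0.093 (adjusted p = 0.036). Bub1b, a kinase-like checkpoint protein, was at 7.55, 7.95 and 8.29 with HCA and 7.64, 8.28 and 8.39 without. Cenpa, the histone that marks centromeres, was at 12.33, 12.61 and 12.90 with HCA and 12.43, 12.91 and 13.11 without. Both overlapped between groups and were called with the block (adjusted p = 0.024 and 0.014). Bub3 differed by 0.05 ± 0.066 and Cdca8, another passenger subunit, by -0.09 ± 0.15.

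Among 6 genes of spindle motors and cytokinesis, 2 fell and 4 did with the block. Kif23, a kinesin of the central spindle, ran from 7.79 through 8.02 to 8.19 with HCA and from 8.01 through 8.51 to 8.68 without. Only 1 array without HCA, 1 µM adaptaquin replicate 1 at 8.01, lay within the range of the HCA arrays. The difference was -0.45 ± 0.090 (adjusted p = 0.0051, limma). Kif11, the kinesin that pushes spindle poles apart, was at 7.93, 8.33 and 8.60 with HCA and 8.18, 8.64 and 8.76 without. Its fall of 0.35 ± 0.099 held an adjusted p of 0.034. Prc1, which bundles microtubules between the separating chromosomes, was at 11.58, 11.78 and 11.96 with HCA and 11.77, 11.99 and 12.29 without. Nusap1, a microtubule-binding protein of the spindle, was at 10.11, 10.46 and 10.67 with HCA and 10.29, 10.63 and 10.93 without. Both were lower in 8 of 8 pairs, with adjusted p of 0.0014 and 0.034 with the block. Tpx2, which activates Aurora A at the spindle, differed by 0.07 ± 0.11. Kif20a was detected on 2 of the 17 arrays and its values near background were not read further.

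Both tested members listed as partners of the anaphase-promoting complex fell. Cdca3, an adaptor of ubiquitin ligases needed for entry into mitosis, ran from 10.96 through 11.25 to 11.54 with HCA and from 11.27 through 11.79 to 11.94 without. As with Kif23, the only array without HCA inside the range of the HCA arrays was 1 µM adaptaquin replicate 1, at 11.27. The difference was -0.50 ± 0.098 (adjusted p = 0.0043, limma). Cdc20, the activator of the complex at anaphase, was at 10.71, 11.11 and 11.30 with HCA and 11.18, 11.47 and 11.71 without, a fall of 0.41 ± 0.094. Its pairs differed by -0.51, -0.39 and -0.29 on average within replicates 1, 2 and 3, and its adjusted p went from 0.011 to 6.1e-05 with the block. Of the chromatin proteins, Top2a, the topoisomerase that untangles sister chromosomes, was at 9.82, 10.11 and 10.40 with HCA and 10.20, 10.34 and 10.72 without, a fall of 0.31 ± 0.092 (adjusted p = 0.041). Hmgb2, a chromatin protein abundant in dividing cells, differed by -0.25 ± 0.092 and was not called in either fit (adjusted p = 0.059 with the block).

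**Figure D1:**
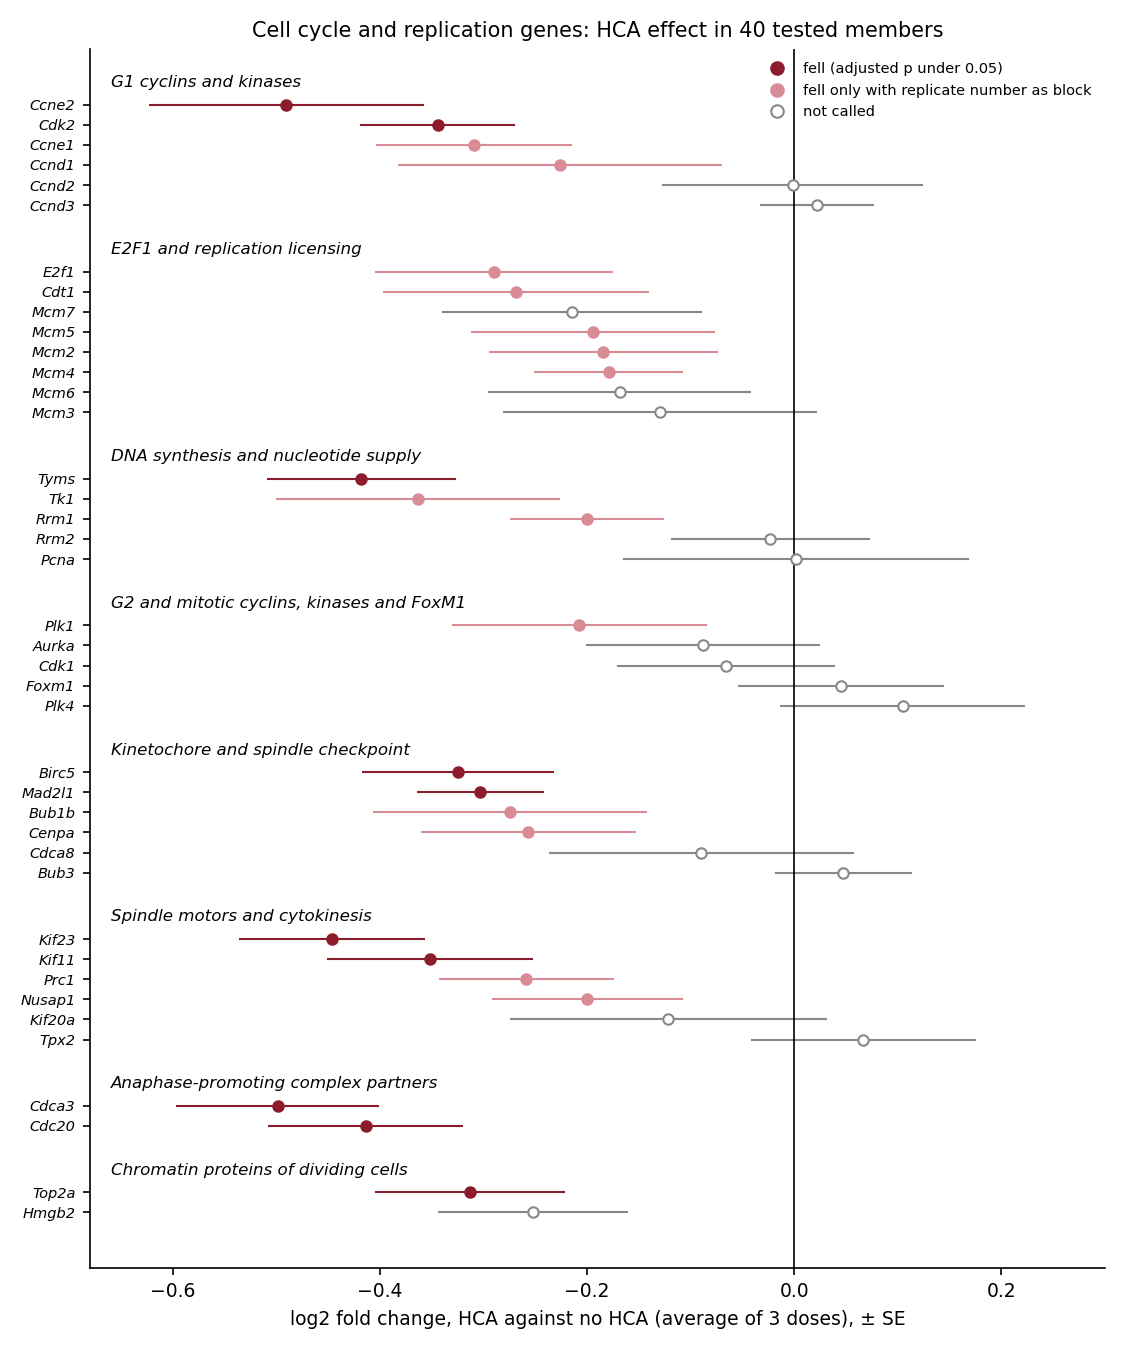
Log2 fold change with HCA against no HCA, averaged over the 3 adaptaquin doses, for each of the 40 tested members (points, with bars of 1 SE), grouped by role; dark points fell in the fit, light points fell only with the replicate number as a block and open points were not called. Of the 40, 34 lie left of 0, and the members at or right of 0, such as Plk4, Tpx2, Bub3 and Foxm1, lie within about 1 SE of it.

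Over the 40 members, 34 differences were negative and the median was -0.21, against a median of -0.0068 and 51.96% negative over all genes tested. In 17 members, HCA was lower in each of the 8 pairs of arrays with the same dose and replicate number, which held for 7.76% of all genes, and 0 were higher in each. All HCA arrays lay below all others for Cdk2 and Tyms alone among the members, 2 of 40, and for 1.27% of all genes. The mean log2 intensity of the 40 ran from 9.29 to 9.36 on HCA arrays of replicate 1 and from 9.40 to 9.60 on the others of that number. In replicate 2 it ran from 9.53 to 9.63 with HCA and from 9.76 to 9.89 without, and in replicate 3 from 9.55 to 9.56 with HCA and from 9.65 to 9.74 without. Within each number the HCA arrays lay below the rest, while across numbers the ranges overlapped.

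The count of 10 depended on the arrays in the fit and, for reduced fits, is given without the share of all genes called. It was 6 without HCA replicate 1, HCA with 1 µM adaptaquin replicate 1, untreated replicate 2 or 1 µM adaptaquin replicate 2, and 4, 0 and 3 without all arrays of replicate 1, 2 or 3. With arrays scaled to 1 median in place of quantile normalization, 1 member (Cdca3) fell and 32 of 40 differences were negative, while all genes split into 253 higher and 165 lower calls in place of 475 and 524.

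**Figure D2:**
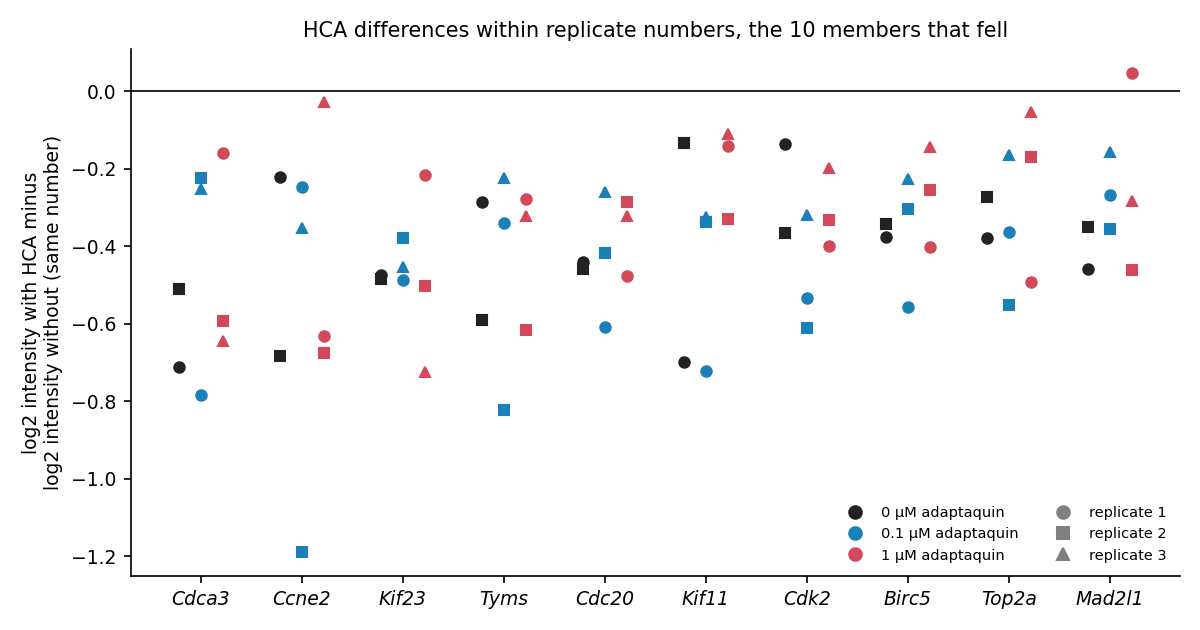
Difference in log2 intensity between the array with HCA and the array without it that share an adaptaquin dose and a replicate number, for the 10 members that fell; colour gives the dose and shape the replicate, 8 pairs a gene. All points but 1, the 1 µM pair of replicate 1 for Mad2l1, lie below 0.

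The HCA effect was also tested at each dose of adaptaquin, where the 3 comparisons rest on 2 or 3 arrays with HCA against 3. Members called were 0 in each, against 0.146% of all genes lower at 0 µM, 0.628% at 0.1 µM and 0.359% at 1 µM. At an unadjusted p under 0.05 there were 7, 11 and 6 of the 40 members, all lower with HCA. Over all genes, 11.5%, 12.6% and 11.5% had such a p in either direction. The median over members was -0.24, -0.25 and -0.15, and 38, 34 and 29 of the 40 differences were negative. Among all genes, 52.7%, 51.3% and 51.5% were negative. With the replicate block, 2 members fell at 0 µM (1.24% of all genes), 9 at 0.1 µM (2.61%) and 3 at 1 µM (2.03%). Cdc20 was called in all 3 of these, Cdk2 and Kif23 at 0.1 and 1 µM, Ccne1 at 0 µM, and Ccnd1, Cdt1, Mcm2, Tyms, Birc5 and Kif11 at 0.1 µM. Overlap between single groups is described below, but the share of all genes without such overlap was not counted. The groups hold 2 or 3 arrays, and the members were named for a call or a small p. A lack of overlap there is therefore no further evidence of a change.

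Without adaptaquin, Mad2l1 was at 10.34, 10.33 and 10.38 in untreated neurons and 9.88 and 9.98 with HCA. The HCA arrays lay below every untreated array, and the difference was -0.42 ± 0.11 (adjusted p = 0.13, limma). Ccne1 was at 6.70, 7.07 and 6.91 untreated and 6.27 and 6.29 with HCA, and Cdca3 at 11.67, 11.80 and 11.74 untreated and 10.96 and 11.29 with HCA. Neither pair of groups overlapped, and both differences were near -0.61 (-0.62 ± 0.18 and -0.61 ± 0.18). Cdc20 went from 11.33, 11.63 and 11.49 to 10.89 and 11.17 (adjusted p = 0.32, and 0.016 with the block).

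With 0.1 µM adaptaquin, Cdk2 was at 10.71, 11.07 and 10.75 without HCA and 10.17, 10.46 and 10.43 with it. Tyms was at 10.67, 11.20 and 10.68 without HCA and 10.33, 10.38 and 10.46 with it, and Kif23 at 8.61, 8.55 and 8.42 without and 8.12, 8.17 and 7.97 with. None of the 3 overlapped between groups. Their differences were -0.49 ± 0.12, -0.46 ± 0.15 and -0.44 ± 0.15 (adjusted p = 0.068, 0.18 and 0.19, limma). Birc5 was at 10.77, 11.02 and 10.82 without HCA and 10.22, 10.72 and 10.59 with it, Kif11 at 8.74, 8.76 and 8.71 without and 8.02, 8.43 and 8.39 with, and Cdc20 at 11.41, 11.71 and 11.48 without and 10.80, 11.30 and 11.22 with. These groups did not overlap either. Ccnd1 was at 11.06, 11.87 and 11.35 without HCA and 10.77, 11.46 and 11.10 with it, Cdt1 at 9.96, 10.24 and 10.16 without and 9.40, 9.91 and 9.90 with, and Mcm2 at 9.67, 10.17 and 9.68 without and 9.40, 9.75 and 9.59 with. Ccnd1 and Mcm2 overlapped between groups and Cdt1 did not.

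With 1 µM adaptaquin, Kif23 was at 8.01, 8.58 and 8.51 without HCA and 7.80, 8.08 and 7.79 with it, so that replicate 1 without HCA lay below replicate 2 with it. Cdca3 was at 11.27, 11.80 and 11.94 without HCA and 11.11, 11.21 and 11.29 with it, again overlapping through replicate 1. Tyms was at 10.74, 11.05 and 10.72 without and 10.47, 10.44 and 10.40 with, and did not overlap. The differences were -0.48 ± 0.15, -0.47 ± 0.16 and -0.41 ± 0.15 (adjusted p = 0.17, 0.24 and 0.29, limma). Cdk2 was at 10.64, 10.84 and 10.66 without HCA and 10.24, 10.51 and 10.46 with it, and Cdc20 at 11.18, 11.47 and 11.38 without and 10.71, 11.18 and 11.06 with. Neither overlapped between groups, though for Cdc20 the nearest arrays were both at 11.18. Without 1 µM adaptaquin replicate 1, the count at this dose was 2 in place of 0, and the share of all genes in that fit is not given here.

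**Figure D3:**
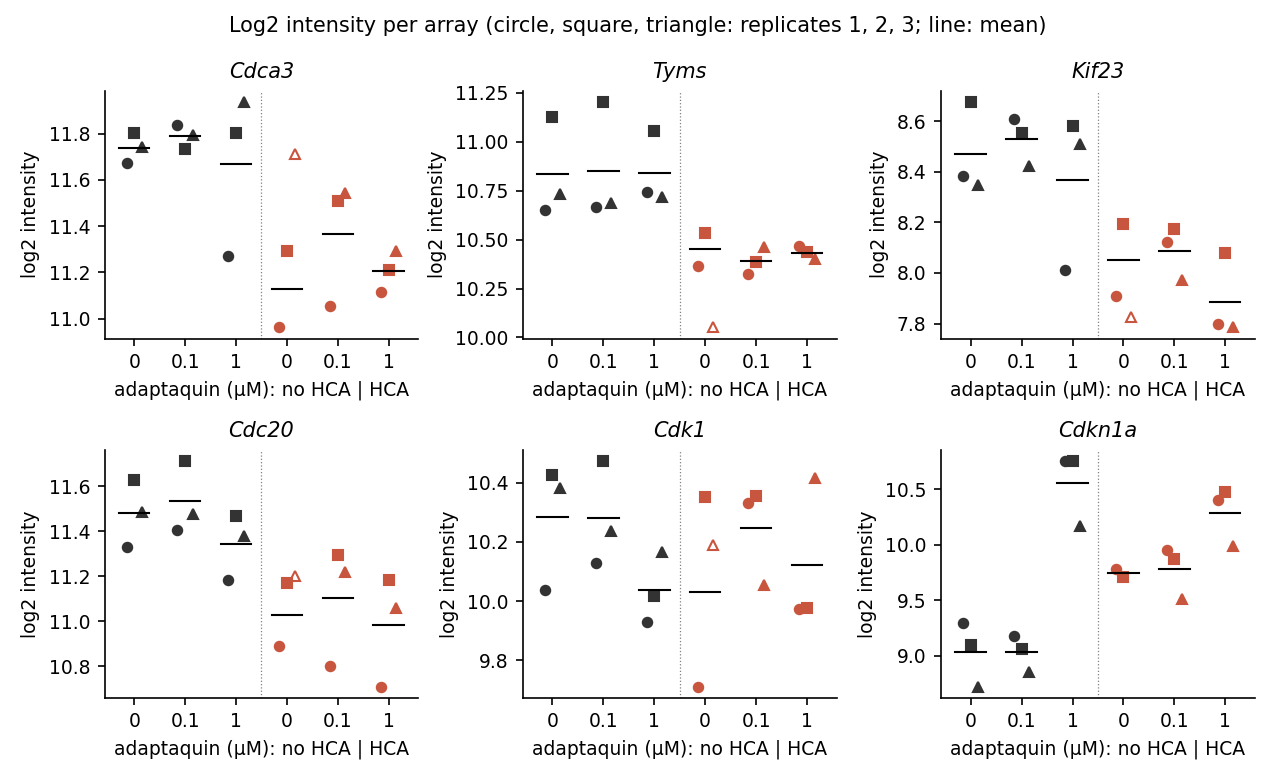
Log2 intensity on each array (vertical axis) by adaptaquin dose and HCA (horizontal axis) for 5 members and Cdkn1a. Grey marks arrays without HCA and red those with it. Shapes mark replicates 1 to 3 and lines the group means. The open triangle is the titled outlier, which is shown for the members only and is not in the mean. Cdca3, Tyms, Kif23 and Cdc20 sit lower with HCA at each dose, Cdk1 does not separate, and Cdkn1a is highest at 1 µM.

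Whether adaptaquin itself moved these genes was asked by comparing doses, and 0 members were called in any of these comparisons, with or without the block. At 1 µM against 0 µM, 0.101% of all genes were called in either direction as an average over both HCA states, 0.146% without HCA and 0% with it. At 1 against 0.1 µM, averaged over HCA, 0.146% were called, and at 0.1 against 0 µM 0%. In each of these, 0 members had an unadjusted p under 0.05, against 1.86% to 3.91% of all genes. The differences were bounded rather than shown to be 0. For 1 µM averaged over HCA, the 95% interval lay within 0.5 log2 units of 0 for 36 of 40 members, for 0.1 µM it did for 38, and for 1 against 0.1 µM for 35. For 1 µM without and with HCA, where fewer arrays enter, it did for 20 and 17.

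Without HCA the members leaned lower at 1 µM, with 34 of 40 differences negative and a median of -0.10, against 50.7% negative and a median of -0.0019 over all genes. Tpx2 was at 7.49, 7.74 and 7.64 in untreated neurons and 7.23, 7.31 and 7.30 at 1 µM. These did not overlap, but the difference of -0.35 ± 0.18 was not called (adjusted p = 1.0, limma). Plk1 was at 10.43, 10.81 and 10.68 untreated and 9.93, 10.45 and 10.60 at 1 µM, and Ccne1 at 6.70, 7.07 and 6.91 untreated and 6.65, 6.72 and 6.60 at 1 µM. Both overlapped, at -0.31 ± 0.21 and -0.24 ± 0.16. These members were named for a small p, and the share of all genes without overlap was not counted. The lack of overlap in Tpx2 is therefore no further evidence of a change. The 10 members that fell with HCA had a median of -0.067 in this comparison, and for 8 of the 10 the lower bound of the 95% interval was above -0.5.

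In the presence of HCA, 23 of 40 differences at 1 µM were negative, with a median of -0.014. Rrm2 was at 9.63 and 9.90 with HCA alone and 9.92, 9.997 and 10.05 with HCA and 1 µM. Ccne1 was at 6.27 and 6.29 with HCA alone and 6.33, 6.43 and 6.69 with HCA and 1 µM, and Pcna at 5.96 and 6.30 and then 6.28, 6.20 and 6.94. Rrm2 and Ccne1 lay above the 2 HCA arrays on all 3 arrays and Pcna overlapped. These members were named for a small p, and the share of all genes separated likewise was not counted. None was called (0.23 ± 0.18, 0.20 ± 0.18 and 0.34 ± 0.31, adjusted p = 0.998 for each, limma). The 10 members that fell with HCA had differences between -0.16 and 0.12 here, with a median of -0.025, and 6 of the 10 were negative.

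Averaged over both HCA states, the members with the smallest p at 1 against 0 µM were Tpx2, Rrm2 and Aurka. Over the 6 arrays at 1 µM, Tpx2 differed by -0.23 ± 0.14 and Aurka, the Aurora A kinase of spindle poles, by -0.18 ± 0.14, while Rrm2 differed by 0.16 ± 0.12. Aurka was at 9.44, 9.82 and 9.66 untreated and 8.99, 9.58 and 9.52 at 1 µM, and at 9.14 and 9.79 with HCA and 9.14, 9.50 and 9.49 with HCA and 1 µM. In both states its ranges overlapped. At 1 against 0.1 µM, 32 of 40 differences were negative (median -0.091), led by Plk1 at -0.27 ± 0.15, Tpx2 at -0.23 ± 0.13 and Kif23 at -0.18 ± 0.11. Plk1 was at 10.48, 10.75 and 10.80 at 0.1 µM without HCA, and at 10.12, 10.52 and 10.68 at 0.1 µM and 9.98, 10.30 and 10.50 at 1 µM with it. The dose comparisons share arrays, so their values are not independent of each other. At 0.1 against 0 µM, 27 of 40 differences were positive (median 0.035), and the smallest p belonged to Pcna (0.30 ± 0.21), Cdca3 (0.14 ± 0.12) and Plk4 (0.15 ± 0.15). Pcna with HCA was at 5.96 and 6.30 without adaptaquin and at 6.90, 6.91 and 6.84 with 0.1 µM, but without HCA at 6.65, 6.44 and 6.82 and then 6.22, 6.26 and 6.97. Plk4 showed the same split, at 6.19 and 6.68 and then 6.83, 6.96 and 6.82 with HCA, and at 6.61, 6.56 and 6.70 and then 6.56, 6.38 and 6.49 without.

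The interaction asks whether the HCA effect differed between 1 and 0 µM adaptaquin, and 0 members were called (0% of all genes). The median over members was 0.11 and 29 of 40 were positive, that is, less negative at 1 µM, against 48.4% negative and a median of 0.0074 over all genes. Ccne1 had the smallest p, with an interaction of 0.44 ± 0.24, then Pcna with 0.62 ± 0.42 and Cdk1 with 0.34 ± 0.26. Cdk1 was at 10.04, 10.43 and 10.38 untreated, 9.71 and 10.35 with HCA, 9.93, 10.02 and 10.17 at 1 µM, and 9.97, 9.98 and 10.42 with both. All 4 of its groups overlapped. For 3 of 40 members the 95% interval of the interaction lay within 0.5 log2 units of 0, and for the other 37 these arrays do not bound a change in the HCA response to that size.

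**Figure D4:**
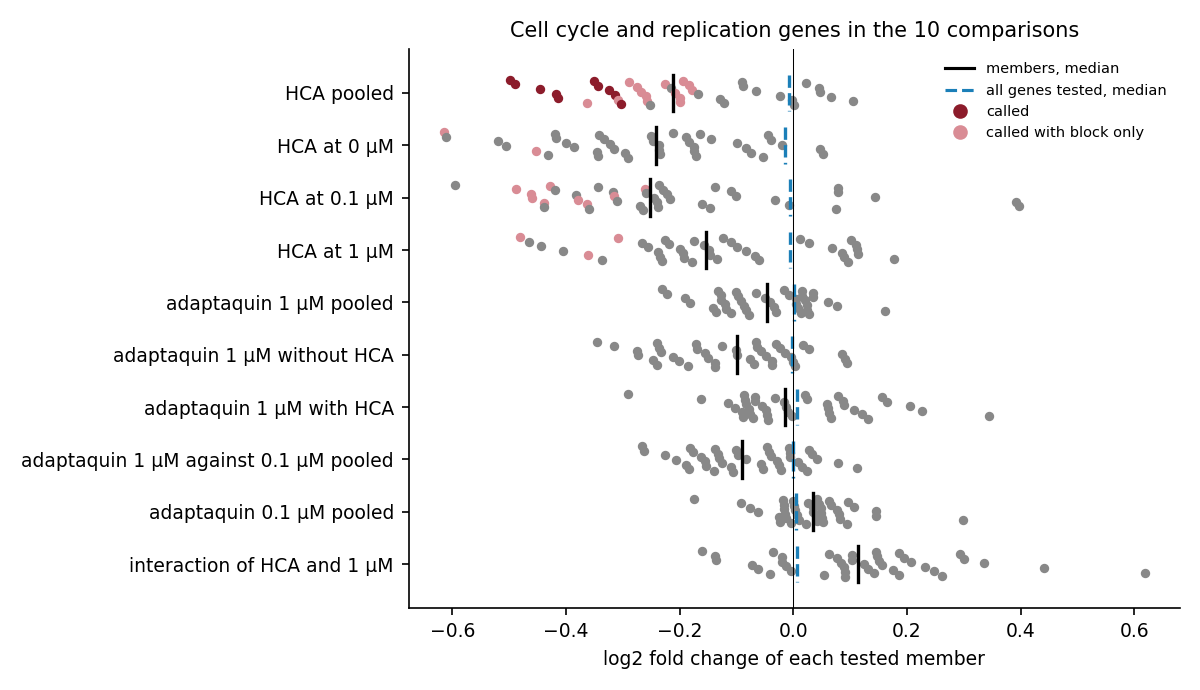
Log2 fold change of each of the 40 tested members (points) in the 10 comparisons (rows), with the members' median (black bar) and the median of all genes tested (blue dashed bar); dark red marks members called and light red those called only with the replicate block. The members' median is lowest in the HCA rows, between -0.15 and -0.25, and no member is called in the adaptaquin rows.

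Cdkn1a and 2 further p53 targets, Ccng1 and Phlda3, were read beside the members, since p21 is known to lower such genes in dividing cells. Cdkn1a was at 9.30, 9.10 and 8.72 in untreated neurons, 9.18, 9.07 and 8.86 at 0.1 µM and 10.75, 10.75 and 10.17 at 1 µM adaptaquin. It rose by 1.52 ± 0.19 at 1 µM without HCA (adjusted p = 0.0039, limma), with all 3 arrays above all untreated ones. In that comparison 0 of the 40 members and 0.146% of all genes were called. Of the 40 differences 34 were negative, with a median of -0.10, against 50.7% negative over all genes. Whether the Cdkn1a rise bears on the members was not tested. Of 21 p53 targets tested, 5 rose and 0 fell in the same comparison, with a median of 0.46. Phlda3, an inhibitor of Akt signalling, rose by 1.51 ± 0.18 there and Ccng1, cyclin G1, by 1.06 ± 0.17. With HCA, Cdkn1a was at 9.79 and 9.71 without adaptaquin, 9.95, 9.88 and 9.51 at 0.1 µM and 10.41, 10.48 and 9.99 at 1 µM. The dose effect with HCA present, 0.54 ± 0.21, was called only with the block (adjusted p = 0.038). Its HCA effect was 0.71 ± 0.21 at 0 µM, 0.75 ± 0.19 at 0.1 µM and -0.27 ± 0.19 at 1 µM, called only with the block at 0 and 0.1 µM (adjusted p = 0.0045 and 0.00014) and in neither fit at 1 µM, and averaged over doses it rose by 0.40 ± 0.11 (adjusted p = 0.039). Ccng1 and Phlda3 were not called with HCA (0.06 ± 0.10 and 0.07 ± 0.11). Of 21 p53 targets tested, 6 rose and 0 fell with HCA in both fits, against 5.32% of all genes higher (9.31% with the block), 8 of the 21 differences were negative and the median was 0.07. The 6 were led by Sesn2 (1.47 ± 0.088), Plk3 (0.50 ± 0.067) and Gadd45a (0.46 ± 0.069), of which Sesn2 and Gadd45a are also known to respond to ATF4.

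Other genes of the cycle, listed by function, were counted beside the members, for which all genes give 5.87% lower (11.3% with the block) and 51.96% negative with HCA. Of 36 further replication genes tested from 48 listed, 5 fell and 0 rose (12 and 0 with the block), 31 of 36 differences were negative and the median was -0.14. They were Chaf1b (-0.51 ± 0.11) and Asf1b (-0.41 ± 0.084), which deposit histones on new DNA, Pole (-0.42 ± 0.11), the leading-strand polymerase, and the origin recognition subunits Orc3 and Orc5. Of 41 further mitotic genes tested from 70 listed, 7 fell and 0 rose (17 and 0 with the block), 36 were negative and the median was -0.15. Ccnf, a cyclin of a ubiquitin ligase (-0.65 ± 0.18), Kif15, a kinesin of the spindle (-0.55 ± 0.12), and Pbk, a mitotic kinase (-0.46 ± 0.090), moved most. Of 17 genes of CDK inhibitors, the Rb family and DREAM, 3 fell and 2 rose (3 and 3 with the block), and the median was -0.045. Mybl2, the B-Myb that partners MuvB, fell by 0.64 ± 0.11 (adjusted p = 0.0023), Cdkn2c, an inhibitor of Cdk4 and Cdk6, by 0.40 ± 0.075 and Rbl1, the p107 protein, by 0.38 ± 0.083, while Cdkn1a and the MuvB subunit Lin37 (0.32 ± 0.066) rose. At 1 µM adaptaquin without HCA, 0 of the replication and mitotic genes were called, and of the inhibitor list 1, Cdkn1a. Over all genes, 0.146% were called there in either direction, so a count of 0 says little.

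Markers of other cell types were counted in the same comparison, where 5.87% of all genes fell and 5.32% rose (11.3% and 9.31% with the block). Of 15 progenitor markers tested from 20 listed, none of them a cell cycle gene, 4 fell and 0 rose with HCA (8 and 1 with the block), and 14 of 15 differences were negative. Nes, the intermediate filament nestin, fell by 0.73 ± 0.10 (adjusted p = 0.00035), Hes5, a Notch target, by 0.57 ± 0.091 and Fabp7, a fatty acid binding protein of radial glia, by 0.51 ± 0.11. Their summed linear intensity was 14929 to 18164 with HCA and 17696 to 20954 without, and Pax6, Neurog1, Prom1 and Hopx were not above the detection filter. Of 9 astrocyte markers, 4 fell, led by Aqp4 (-0.49 ± 0.14) and Aldh1l1 (-0.46 ± 0.11), and 1 rose, the glutamate transporter Slc1a2 (2.10 ± 0.19), and with the block 5 fell and 1 rose. The astrocyte sum was 8340 to 10310 with HCA and 9821 to 14254 without. Of 6 markers of the oligodendrocyte lineage, Olig1 (-0.54 ± 0.10) and Cnp (-0.44 ± 0.12) fell and 0 rose, while with the block 3 fell and 1 rose, and the sum was 1528 to 2104 with HCA and 1974 to 2977 without. For comparison, the sum over the 40 members was 42232 to 54554 with HCA and 46923 to 67293 without, so all 4 sums overlapped. The part of these cell types in the fall of the members was not tested.

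In the remaining marker lists, 0 genes fell without the block and 1 with it. Of 14 neuronal markers 1 rose with HCA, Gad1 (0.41 ± 0.12), and 0 fell (2 and 0 with the block), with sums of 47751 to 55191 with HCA and 45322 to 53907 without. Of 9 microglial markers 0 were called in either fit and 0 of 9 differences were negative (median 0.11, sums of 1674 to 2228 with HCA and 1548 to 1912 without). Of 6 markers of vessel and fibroblast cells 1 rose, Dcn (0.49 ± 0.096), and 0 fell, while with the block 1 rose and 1, Flt1, fell, with sums of 6384 to 10193 and 6702 to 10124. The only red cell marker measured, Hba-a1, was not called. At 1 µM adaptaquin without HCA, 0 progenitor, astrocyte and oligodendrocyte markers were called, against 0.146% of all genes in either direction. With so few calls among all genes, a count of 0 in lists of this size shows little.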

How the data were processed

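Per the file headers, the main deposited table gives the intensity of each probe on 18 arrays before any normalization between arrays. Beside every deposited intensity stands its detection p-value. A second deposited table, used as an alternative, gives the authors' log2 values for 17 arrays. Quantile normalization of the first table, with no other step, returned those log2 values to within 5e-09. No source used here names the scanner software.

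Background was estimated through the detection p-values and removed with nec of limma 3.58.1 (R 4.3.3), an offset of 16 was added, and all 18 arrays were quantile-normalized and put on the log2 scale. Among the 25697 probes, 23978 had 1 gene symbol in the platform's annotation and 1719 had none. Of these, 23962 matched a gene of the RefSeq table of GRCm38.p6, which changed 0 symbols. Probes detected at p under 0.01 on 2 or more of the 17 arrays were retained (12991, of which 12227 had a symbol), and the brightest probe stood for each of 8922 genes, 2386 of which had several probes. Of 13 members with several probes, all probes gave the same sign with HCA in 11, and they differed in Foxm1 and Mcm4. The 6 group means were fitted with limma as a linear model and moderated by empirical Bayes (11 residual and 3.22 prior degrees of freedom), and p-values, two-sided, were adjusted by Benjamini-Hochberg over all genes within each of 10 comparisons at 0.05. The fit was tested on simulated data.

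The labels give each group replicates 1 to 3. In residuals from the group means, all 40 pairs of arrays with the same number correlated above 0.1 (0.24 to 0.63). Different numbers correlated between -0.46 and 0.061, and 17 of 17 arrays correlated best with their own number. With group means removed, these last results follow in part from the first and are not separate support. The numbers were taken to pair the arrays from the correlations of same-numbered arrays and not from the labels. The fit with the number as a block (9 residual degrees of freedom) is given beside the fit without it for the members, and for the other lists with HCA as counts.

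The members and the other gene lists were chosen with earlier results of these data known. Named genes were the members called in either fit, the 3 members with the smallest p where a comparison called none, up to 2 uncalled members a role, Cdkn1a, Ccng1 and Phlda3, and up to 3 called genes of each further list with the largest change. A few genes outside that rule were named after their values were seen, to account for small counts. Alternatives were the block, the titled outlier, the authors' log2 table, median scaling, the detection filter, the probe rule, a trended variance and leaving out arrays.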

Additional observations from a re-analysis of the deposited data

How the results depend on the processing

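The 24 members called with or without the block kept their sign with HCA in every alternative run. Single further probes were not among those runs. For Mcm4, which is among the 24, dimmer probes gave -0.15 and 0.046, detected on 4 and 8 arrays. Ccnd2, near 0 in the fit, went from -0.0015 to 0.0010 with the block, and a further probe of Foxm1 gave -0.025 in place of 0.05. With the replicate number as a block, the members called went from 10 to 24 for HCA averaged over doses and from 0 to 2, 9 and 3 for HCA at 0, 0.1 and 1 µM. With the block and the titled outlier included, an alternative chosen after seeing the data, they were 25, 11, 9 and 2. The authors' log2 table and a trended, robust variance each gave 1 member for HCA at 0.1 µM. Median scaling gave 1 for HCA averaged over doses, where it also called fewer genes in all. Leaving out arrays gave between 0 and 12 for HCA averaged over doses, the 0 without all arrays of replicate 2, and between 0 and 2 for HCA at 1 µM. The calls over all genes are given here only for the block and median scaling, not for the other alternatives. The block changed no call of a member in an adaptaquin comparison. Of the 10 members that fell, Cdca3 lost its call in 1 of 29 alternatives and Top2a in 18, and each kept its sign in all of them. The cause of these differences was not tested. Signal over background limited 8 members, which were not detected, and Kif20a.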

Other observations

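HCA replicate 3, the array titled an outlier and kept out of the fits, carried the same direction in these genes. It was lower than untreated replicate 3 for 35 of the 40 members, with a median difference of -0.23, and for all 10 members that fell with HCA, with a median of -0.43. Among the 10 the difference ran from -1.75 in Ccne2 to -0.029 in Cdca3, which was nearly level. Over all genes tested, 49.5% were lower and the median was 0.0031. It is 1 array with lower intensities than the others, and no test was made of it alone. Untreated replicate 3 was among the arrays on which the 10 were called.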
